A study of Mus musculus with 3 samples.

Results

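The genes described here are 10 cytokine and feedback genes of the inflammatory response, taken by symbol from the 55357 genes of the deposited feature lists. They are the cytokines Tnf, Il1a, Il1b, Il6, Il10 and Osm, the interleukin-1 antagonists Il1rn and Il1r2, and the intracellular inhibitors Nfkbia and Tnfaip3. All 10 were found in the 3 libraries. Their raw counts of unique molecular identifiers (UMIs) and the cells that detected them are given for each library and for classes of cells gated by markers, none of which is one of the 10 genes.

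NF-kB is a family of transcription factors held in the cytoplasm by inhibitor proteins. Signals from tumour necrosis factor, interleukin-1 and microbial products lead to the breakdown of the inhibitor that Nfkbia encodes, after which the factors enter the nucleus and switch on cytokine genes. Nfkbia and Tnfaip3, which encodes the ubiquitin-editing protein A20, are themselves targets, so that the pathway restrains itself. Interleukin-1 is further held back by a receptor antagonist made from Il1rn and by a decoy receptor made from Il1r2, and interleukin-10 lowers cytokine output of myeloid cells. In the nasal mucosa, resident macrophages, recruited neutrophils, vessels and epithelium can all take part in this response.

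The libraries come from single-cell RNA sequencing of the nasal mucosa of C57BL/6J mice in 3 groups, each pooled from all its mice, males and females, into 1 library. The PBS group received PBS in the nose. The papain group, a model of eosinophilic chronic sinusitis per the series title, received 20 µg of papain, a plant cysteine protease, in the nose and PBS by gavage. The third group received the same papain and 10 mg/kg of lonidamine by gavage, and its library is called the lonidamine library here. Lonidamine is an inhibitor of glycolysis and of lactate and pyruvate transport. The questions are how the 10 genes differ after papain and whether they differ when lonidamine is added. With 1 library per group there is no test and no p-value, and higher or lower describes these libraries only. All intervals are 95% intervals and cover counting error only, not the spread between mice.

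After filtering, 9378 PBS, 10524 papain and 11887 lonidamine cells remained, with 79971740, 82918339 and 84998730 UMIs and a median of 7352, 6547 and 5823 UMIs per cell. Marker gates placed 91.9% to 93.2% of the cells of each library in a class. The library name in the labels of the papain sample is Fibroblast, yet only 4.29% of its cells passed the fibroblast gate, and it was used under its treatment label. No cell passed the eosinophil gate in any library. The 18S ribosomal RNA took 0.877% of UMIs in the PBS library and 3.66% and 3.51% in the papain and lonidamine libraries. Among cells whose sex could be assigned from their RNA, 56.8%, 73.2% and 83.1% were female, although each group held both sexes in equal number per the series' design text. Between 22 and 35 cell barcodes were shared by each pair of libraries.

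The upstream sequences of the inhibitor genes and of Il6 are shown because the kappa B motif, the sequence that NF-kB binds, was found there. RefSeq windows of the 250 bases before an annotated start (build GRCm38.p6, strand of the gene) existed for 8 of the 10 genes, Il10 and Osm being those without one. Capitals mark matches, on either strand, to the kappa B consensus or to the AP-1 motif TGANTCA, which did not overlap each other. Nfkbia (chr12:55492648-55492897, minus strand) holds 1 kappa B match whose first base lies 29 bases before the start. The window of one start of Tnfaip3 (chr10:19015411-19015660, minus strand) holds kappa B matches 125 and 12 bases before the start, and 1 AP-1 match. Il6 (chr5:30012864-30013113, plus strand) holds 1 kappa B match 44 bases before the start and 1 AP-1 match.
Nfkbia: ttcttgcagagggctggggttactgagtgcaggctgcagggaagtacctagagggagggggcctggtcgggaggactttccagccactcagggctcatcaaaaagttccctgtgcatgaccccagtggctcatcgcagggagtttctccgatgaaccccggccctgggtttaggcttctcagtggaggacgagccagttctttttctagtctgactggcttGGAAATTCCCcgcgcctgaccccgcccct
Tnfaip3: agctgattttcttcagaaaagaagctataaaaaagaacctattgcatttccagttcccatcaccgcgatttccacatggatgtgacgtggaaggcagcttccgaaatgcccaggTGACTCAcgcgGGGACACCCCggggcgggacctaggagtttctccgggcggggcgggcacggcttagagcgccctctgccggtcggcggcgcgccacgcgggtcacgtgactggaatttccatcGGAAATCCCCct
Il6: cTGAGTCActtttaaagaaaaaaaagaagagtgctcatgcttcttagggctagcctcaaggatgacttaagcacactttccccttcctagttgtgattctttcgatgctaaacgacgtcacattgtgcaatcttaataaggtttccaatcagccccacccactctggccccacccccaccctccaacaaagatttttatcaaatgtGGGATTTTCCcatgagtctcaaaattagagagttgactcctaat
Tnf (chr17:35202008-35202257, minus strand) is shown beside them as a cytokine gene whose window holds neither motif.
Tnf: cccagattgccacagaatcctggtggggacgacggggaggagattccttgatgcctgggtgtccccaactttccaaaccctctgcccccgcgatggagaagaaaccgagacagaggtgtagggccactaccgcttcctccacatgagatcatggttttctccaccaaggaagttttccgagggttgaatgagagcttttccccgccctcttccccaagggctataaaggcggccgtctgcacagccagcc
Kappa B matches were found in 3 of the 8 genes with a window and AP-1 matches in 4, namely Il1a, Il6, Il1rn and Tnfaip3. Counted by window, 3 of the 11 windows of these genes held a kappa B match. Of all 32851 windows of this length, 7.25% held a kappa B match and 6.75% an AP-1 match. Il1rn and Tnfaip3 have more than 1 window, so the counts by gene are not in the unit of these shares. These are matches of letters and do not show that a factor binds.

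Across all cells, interleukin-10, interleukin-6, the interleukin-1 receptor antagonist and A20 were the transcripts that stood higher in the papain library, while Il1b, the most abundant of the cytokine transcripts, did not. Counts were divided by the UMIs of each library and are given as counts per 1000000 UMIs (CPM), and a gene was called higher or lower when its CPM differed at least 2-fold with at least 20 UMIs in the libraries compared. Papain against PBS, 4 of the 10 genes were called higher, where 10.2% of the 22862 genes tested were, and 1 was called lower, where 5.92% were. The median log2 ratio of the 10 genes was 0.94 and that of all tested genes -0.02. When lonidamine was added to papain, none of the 10 genes was called higher (2.90% of 22947 genes) or lower (2.08%), and their median log2 ratio was -0.13 beside 0.03 for all genes. The comparisons share the papain library, and their values are given side by side.

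**Figure D1:**
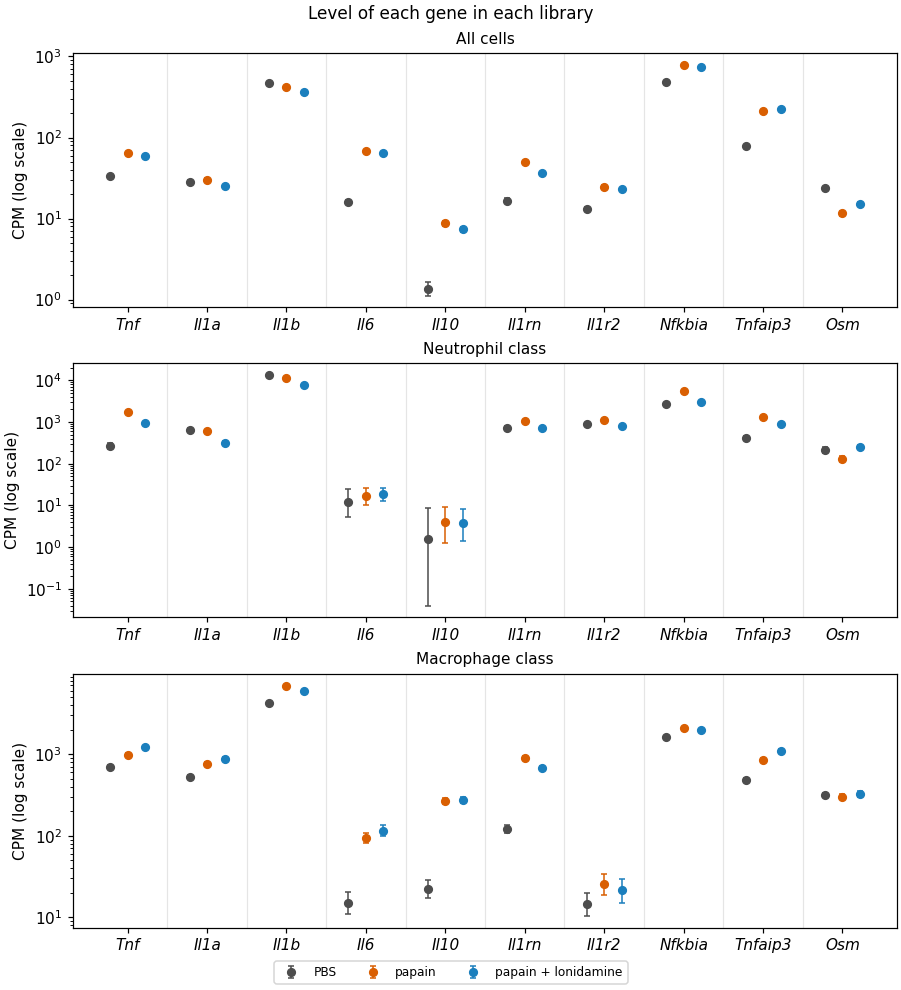
Level of each of the 10 genes (vertical axis, CPM, log scale) in the PBS, papain and lonidamine libraries, for all cells, neutrophils and macrophages; each point is 1 library and bars are 95% counting intervals. In all cells Il6 stands at 15.9, 67.3 and 64.1 CPM and Il1b at 471, 426 and 360.0 CPM.

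Tnf (ENSMUSG00000024401), which encodes tumour necrosis factor, was counted as 2673 UMIs in the PBS, 5414 in the papain and 4984 in the lonidamine library, or 33.4, 65.3 and 58.6 CPM. It was 1.95-fold higher in the papain than in the PBS library (log2 ratio 0.97, 0.90 to 1.03), just short of the 2-fold limit. The cells that carried it differed. Macrophages held 73.3% of all Tnf UMIs in the PBS library and 34.8% in the papain library, while neutrophils held 6.47% and 41.2%. Neutrophils were also a larger part of the tissue, with 251, 670 and 806 cells or 2.68%, 6.37% and 6.78% of all cells, and Tnf was higher within them as well.

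Within neutrophils Tnf stood at 267, 1776 and 959 CPM, from 173, 2228 and 1531 UMIs. Papain neutrophils were 6.62-fold higher than PBS neutrophils (log2 ratio 2.73, 2.51 to 2.96). A Tnf UMI was found in 31.9% of PBS neutrophils, 63.0% of papain and 43.5% of lonidamine neutrophils. With each cell thinned to 1000 UMIs, so that depth is equal, these shares were 22.7%, 55.8% and 35.7%. Shallower cells were left out by thinning, so that 247 of 251, 570 of 670 and 633 of 806 neutrophils remained. In mature olfactory neurons, which should lack the transcript and so show the level of free RNA, a Tnf UMI was found in 1.5%, 2.36% and 1.38% of cells. The neurons held a median of 7707, 7123 and 6621 UMIs and the neutrophils 1958, 1530.5 and 1423. Papain neutrophils were the highest and PBS neutrophils the lowest by level and by both shares.

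Macrophages had the highest Tnf level of the larger classes in the PBS and lonidamine libraries, at 704 and 1214 CPM, and stood second to neutrophils in the papain library at 980.4 CPM. The log2 ratio in macrophages was 0.48 (0.39 to 0.57) for papain against PBS and 0.31 (0.22 to 0.40) for lonidamine added to papain. Monocytes had 55.6, 273 and 196 CPM, a log2 ratio of 2.30 (1.94 to 2.65) after papain. The gated monocytes were not alike in kind across libraries. Of them 88.7%, 65.5% and 70.0% lay in clusters of that name, and 9.28%, 24.4% and 20.6% had only the minimum of 3 markers. The part of this in the monocyte values, here and for the other genes, was not tested. Gamma delta T cells had 93.3, 42.5 and 81.9 CPM of Tnf, in the PBS library more than monocytes, and alpha beta T cells 22.5, 26.6 and 37.4 CPM. Tnf stood at 0.841, 17.6 and 22 CPM in secretory or goblet cells and 2.05, 15.4 and 17.3 CPM in sustentacular cells, which support the neurons of the olfactory epithelium. A Tnf UMI was found in 1.37%, 16.1% and 15.0% of the secretory or goblet cells, in the papain and lonidamine libraries above the neuron share. Of the 17 larger classes, those of 50 or more cells in each library, 14 had enough Tnf UMIs for papain against PBS, and 9 of them were called higher and 1, gamma delta T cells, lower. With lonidamine added, 3 of 17 were called lower, pericytes or smooth muscle cells (log2 ratio -1.20), immature olfactory neurons (-1.70) and globose basal cells (-1.29), and none higher. Some of these rest on very few cells, and in pericytes 22 of the 56 papain UMIs came from 1 cell.

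Il1b (ENSMUSG00000027398), the secreted interleukin-1 that is processed by the inflammasome, had 37678, 35327 and 30601 UMIs, or 471, 426 and 360.0 CPM. Its log2 ratio was -0.15 (-0.17 to -0.12) for papain against PBS and -0.24 (-0.27 to -0.22) for lonidamine added to papain. The total was thus nearly level, but its sources were not. Monocytes held 23.2% of Il1b UMIs in the PBS library and 4.99% and 5.70% in the others, as their number went from 388 to 119 and 180 cells. Neutrophils held 22.7%, 40.1% and 40.2%.

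Neutrophils had the highest Il1b level, 13240.3, 11298 and 7697 CPM, and 98.4%, 96.6% and 86.1% of them had a UMI. Macrophages were the next class in the papain and lonidamine libraries, at 4289, 6957 and 6046 CPM, and their log2 ratio after papain was 0.70 (0.66 to 0.73). Conventional dendritic cells, at 3950.1, 3313 and 2841 CPM, and monocytes, at 3546, 3568 and 2209.8 CPM, had levels of the same order. Il1b was thus high in neutrophils without papain, and of these 4 classes macrophages alone stood higher after papain by more than counting error. In mature olfactory neurons 11.3%, 9.29% and 6.11% of cells had an Il1b UMI, so shares of about this size in other classes cannot be told from free RNA. The Il1b shares of endothelial cells (10.9%, 10.1% and 10.2%) and of pericytes (5.16%, 7.59% and 7.03%) were of that size, and 107 of the 320 papain UMIs in pericytes came from 1 cell.

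Il1a (ENSMUSG00000027399), a cell-bound interleukin-1 that acts when cells are damaged, was level across the libraries at 28.6, 30.2 and 25.2 CPM. Macrophages held 64.6%, 58.4% and 68.1% of its UMIs, and their level was 530.3, 762 and 876 CPM. Neutrophils had 649, 614 and 313 CPM. In macrophages Il1a was thus somewhat higher in each papain-treated library (log2 ratio 0.52, 0.42 to 0.63, for papain against PBS), while in neutrophils it was lower only in the lonidamine library (log2 ratio -0.97, -1.14 to -0.81). Conventional dendritic cells had 46 UMIs of Il1a in the PBS library, 1 in the papain and 16 in the lonidamine library.

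The antagonists moved apart from the agonists. Il1rn (ENSMUSG00000026981) had 1338, 4122 and 3112 UMIs, or 16.7, 49.7 and 36.6 CPM, and was 2.97-fold higher after papain (log2 ratio 1.57, 1.48 to 1.66). Macrophages showed the largest difference among the myeloid classes, with 122, 907 and 686 CPM and a UMI in 23.8%, 64.0% and 51.8% of cells, a log2 ratio of 2.90 (2.73 to 3.07). Monocytes had 134, 393 and 162 CPM, and conventional dendritic cells 20.9, 105 and 74.6 CPM. Neutrophils, which already had 726 CPM in the PBS library, had 1066 and 719.7 CPM in the papain and lonidamine libraries. Lonidamine added to papain gave an all-cell log2 ratio of -0.44 (-0.51 to -0.37), under 2-fold. Of the 12 classes with enough UMIs, 11 were called higher after papain and none lower, the neutrophils being the class within 2-fold. The 11 include mature olfactory neurons, the free RNA reference, with an Il1rn UMI in 1.08%, 1.93% and 1.12% of cells. Papain pericytes or smooth muscle cells (2.88%) and blood endothelial cells (3.37%) had shares not far above that. Of the 25 papain endothelial UMIs 14 came from 1 cell. Classes with shares of about this size cannot be told from free RNA. With lonidamine added, 2 of 14 were called lower, monocytes (log2 ratio -1.27, -1.61 to -0.95) and immature olfactory neurons (-1.32, -2.20 to -0.57), and none higher.

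Because Il1rn was higher and Il1b was not, the balance of the transcripts differed. There were 3.55 Il1rn UMIs for every 100 Il1b UMIs in the PBS library, 11.7 in the papain and 10.2 in the lonidamine library. In macrophages these were 2.83, 13 and 11.3, and in conventional dendritic cells 0.529, 3.18 and 2.63. In neutrophils they were 5.49, 9.43 and 9.35, so that the neutrophil values of both papain-treated libraries were alike although both transcripts were lower with lonidamine. The ratio compares the same pair of genes across libraries and says nothing about protein.

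**Figure D2:**
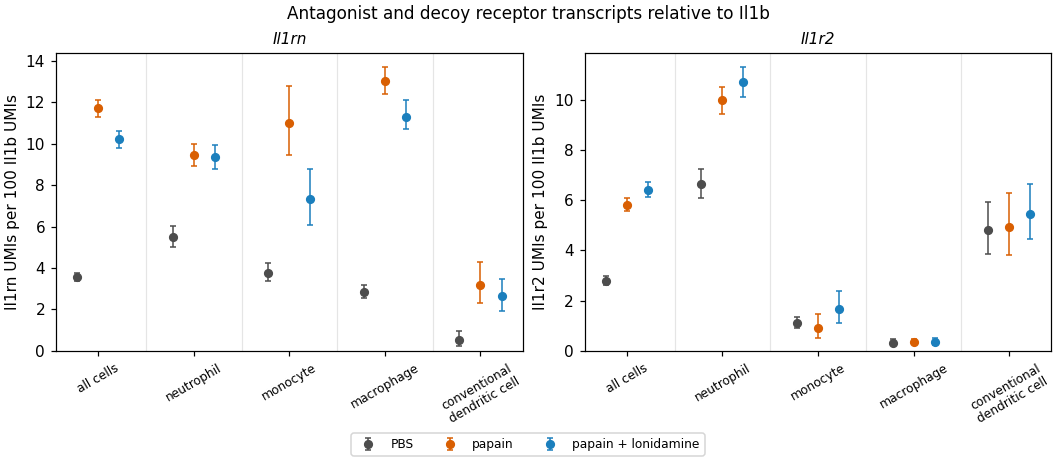
UMIs of Il1rn and Il1r2 per 100 UMIs of Il1b (vertical axis) in the 3 libraries, for all cells and 4 myeloid classes; bars are 95% counting intervals. Il1rn per 100 Il1b UMIs in macrophages goes from 2.83 in the PBS library to 13 and 11.3 in the papain and lonidamine libraries, while Il1r2 in macrophages stays under 1.

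Il1r2 (ENSMUSG00000026073), the decoy receptor that binds interleukin-1 without signalling, had 13.2, 24.7 and 23.1 CPM, 1.87-fold higher after papain (log2 ratio 0.91, 0.80 to 1.01). It was foremost a neutrophil transcript: neutrophils held 53.8%, 68.9% and 66.7% of its UMIs. Their level was 878, 1126 and 819.9 CPM. Within neutrophils it differed little (log2 ratio 0.36, 0.22 to 0.50, after papain), while their share of cells was larger, and the part of that share in the higher total was not tested. Conventional dendritic cells were next with 190.2, 164 and 155 CPM, and macrophages had only 14.4, 25.5 and 21.6 CPM. Alpha beta T cells differed most, with 6, 108 and 79 UMIs or 5.63, 73.6 and 59.2 CPM, a log2 ratio of 3.60 (2.54 to 5.19) after papain. A UMI was found in 0.984%, 13.6% and 9.66% of these T cells, and in 0.815%, 0.857% and 1.05% of mature olfactory neurons. Of the gated alpha beta T cells 46.9%, 71.5% and 72.3% lay in clusters of that name, and the part of this difference in the Il1r2 values was not tested. Group 2 innate lymphoid cells, 22, 86 and 134 in number, had 1, 20 and 39 Il1r2 UMIs.

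Il6 (ENSMUSG00000025746) was a transcript of structural cells more than of leukocytes. It had 1272, 5583 and 5449 UMIs, or 15.9, 67.3 and 64.1 CPM, 4.23-fold higher after papain (log2 ratio 2.08, 1.99 to 2.17) and level when lonidamine was added (-0.07, -0.12 to -0.02). In the papain library sustentacular cells held 24.0% of its UMIs, basal epithelial cells 20.9%, blood endothelial cells 14.6%, pericytes or smooth muscle cells 13.5% and fibroblasts 9.03%. Macrophages held 3.26% and neutrophils 0.376%.

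Pericytes or smooth muscle cells had the highest Il6 level of the larger classes in each library, 191, 344 and 506 CPM. Blood endothelial cells, which line the vessels, came from 23.4 CPM in the PBS library to 267 and 350.1 CPM in the papain and lonidamine libraries, from 50, 813 and 1091 UMIs. Their ratio was the largest of the larger classes with enough UMIs (11.3-fold, log2 ratio 3.50, 3.10 to 3.96), and a UMI was found in 6.77%, 36.0% and 41.5% of endothelial cells. In the free RNA reference, the mature olfactory neurons, the shares were 1.24%, 2.07% and 1.31%. Fibroblasts had 57.5, 180.0 and 150.5 CPM and basal epithelial cells 32.7, 70.1 and 68.8 CPM. Secretory or goblet cells had 5.05, 36.0 and 31.7 CPM. Of the 6 structural or epithelial classes named here 5 passed 2-fold after papain, and pericytes or smooth muscle cells lay within it (log2 ratio 0.85, 0.64 to 1.07).

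Lonidamine added to papain left the Il6 total level, but its classes went different ways. Sustentacular cells had 31.6, 106 and 55.9 CPM, a log2 ratio of -0.92 (-1.05 to -0.79) with lonidamine, while pericytes or smooth muscle cells (0.56, 0.42 to 0.70) and endothelial cells (0.39, 0.26 to 0.52) were higher. None of these reached 2-fold. Conventional dendritic cells did, with 1, 9 and 68 Il6 UMIs in 59, 67 and 128 cells, or 2.09, 21.0 and 99.5 CPM, as did 3 neuronal or epithelial classes of at most 10.5 CPM. The all-cell ratio for lonidamine added to papain was 0.15 in female cells and -1.04 in male cells, and the difference between the sexes was not tested. Macrophages had 15.1, 94.8 and 116 CPM, a log2 ratio of 2.64 (2.16 to 3.17) after papain. The few gated basophils had 76, 78 and 13 Il6 UMIs in 18, 8 and 6 cells, the highest level of any class in the PBS and papain libraries, but too few cells to compare.

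**Figure D3:**
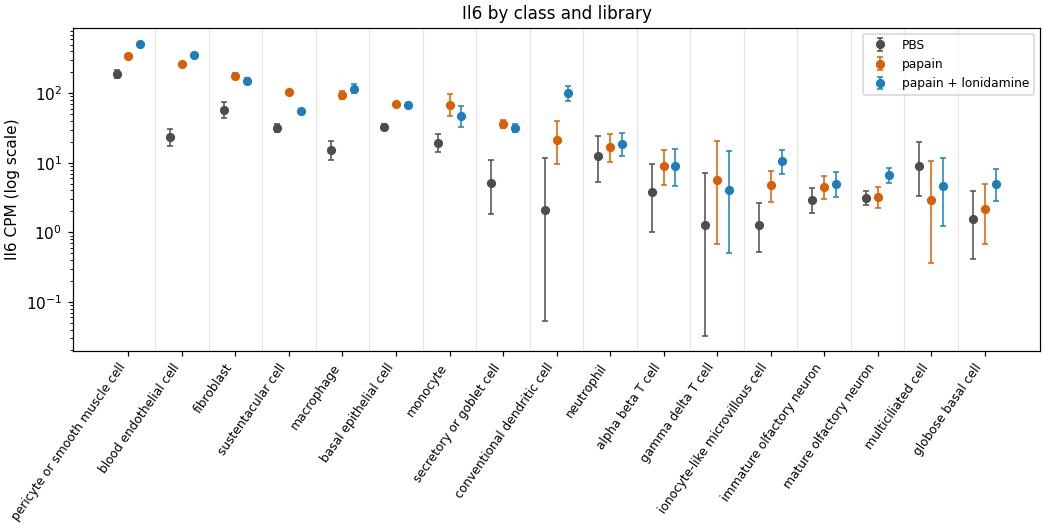
Il6 level (vertical axis, CPM, log scale) in the 17 larger classes for the PBS, papain and lonidamine libraries; bars are 95% counting intervals. Blood endothelial cells stand at 23.4, 267 and 350.1 CPM and pericytes or smooth muscle cells at 191, 344 and 506 CPM.

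Il10 (ENSMUSG00000016529), the cytokine that damps myeloid output, was the rarest of the 10 transcripts, with 109, 728 and 626 UMIs or 1.36, 8.78 and 7.36 CPM. It had the largest all-cell ratio of the 10 after papain (6.42-fold, log2 ratio 2.68, 2.4 to 2.99). Macrophages held 56.9%, 71.0% and 73.0% of its UMIs. Their level was 22.3, 269 and 275 CPM, a 12.0-fold difference after papain (log2 ratio 3.58, 3.21 to 4.00) and none when lonidamine was added (0.03, -0.16 to 0.21). An Il10 UMI was found in 4.37%, 23.7% and 18.5% of macrophages. Alpha beta T cells had 10.3, 22.5 and 38.9 CPM, with a log2 ratio of 0.78 (0.13 to 1.47) for lonidamine added to papain. Neutrophils had 1, 5 and 6 UMIs in all. A few cells decided some values: 18 of 38 papain UMIs in monocytes came from 1 cell, as did 32 of 43 in mature olfactory neurons.

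Osm (ENSMUSG00000058755), a cytokine of the interleukin-6 family that acts on vessels, epithelium and fibroblasts, was the only one of the 10 called lower after papain, with 1896, 967 and 1300 UMIs or 23.7, 11.7 and 15.3 CPM (log2 ratio -1.02, -1.14 to -0.91). The call is at the limit: the ratio was -0.96 when mitochondrial, 18S and haemoglobin genes were left out of the totals, and -0.83 in female cells alone. Macrophages held 46.6%, 60.1% and 41.3% of its UMIs and their level was nearly the same in each library, 317, 303 and 323 CPM. Monocytes held 29.0%, 4.45% and 10.5%, at 223, 87.1 and 174 CPM. The number of monocytes was also lower, at 4.14%, 1.13% and 1.51% of cells, and its part in the total was not tested. Neutrophils had 212, 128 and 252 CPM, a log2 ratio of 0.97 (0.71 to 1.25) for lonidamine added to papain, close to the limit, though it was -1.17 in the few male neutrophils. Osm in neutrophils was thus lowest in the papain library, where Tnf was highest.

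Nfkbia (ENSMUSG00000021025), the inhibitor that holds NF-kB in the cytoplasm, was detected in most cells: 63.2%, 72.0% and 70.9% had a UMI. It had 38995, 65621 and 62371 UMIs or 488, 791 and 734 CPM, 1.62-fold higher after papain (log2 ratio 0.70, 0.68 to 0.72). Neutrophils had the highest level of the larger classes, 2728, 5410.1 and 2943 CPM, and the papain value was 1.98-fold the PBS value. Blood endothelial cells were next, with 2153, 2726 and 2231 CPM, and macrophages had 1639.5, 2089 and 1961 CPM. In secretory or goblet cells Nfkbia stood at 264, 674 and 741 CPM (log2 ratio 1.35, 1.18 to 1.52), and in multiciliated cells the log2 ratio was 1.73 (1.43 to 2.05). These were the classes called higher of 17, and gamma delta T cells were called lower (-1.34, -1.60 to -1.09). No class was called in either direction when lonidamine was added.

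Tnfaip3 (ENSMUSG00000019850) differed in more classes than Nfkbia. It had 6351, 17703 and 19280 UMIs, or 79.4, 213 and 227 CPM, 2.69-fold higher after papain (log2 ratio 1.43, 1.39 to 1.47) and not lower when lonidamine was added (0.09, 0.06 to 0.12). A UMI was found in 23.5%, 43.9% and 44.4% of all cells. After papain it was called higher in 11 of 17 classes and lower in none. Secretory or goblet cells differed most, at 22.7, 226 and 223 CPM (9.79-fold, log2 ratio 3.29, 2.77 to 3.93), and a UMI was found in 15.1%, 67.2% and 60.4% of them. There were 73, 384 and 407 such cells, of which 53.4%, 76.0% and 66.6% lay in clusters of that name, and the part of this difference was not tested.

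Basal epithelial cells had 73.8, 278 and 299.8 CPM of Tnfaip3, sustentacular cells 69.0, 203 and 166 CPM, and blood endothelial cells 107, 338 and 374 CPM. In neutrophils the level was 417, 1315 and 919 CPM (log2 ratio 1.65, 1.47 to 1.85, after papain). Macrophages had 487, 846 and 1110.1 CPM, a log2 ratio of 0.80 (0.69 to 0.90) for papain against PBS, 0.39 (0.29 to 0.49) for lonidamine added to papain and 1.19 (1.09 to 1.29) for lonidamine with papain against PBS, the last past 2-fold. Alpha beta T cells had a high level that differed little, 595, 614 and 779 CPM, and group 2 innate lymphoid cells had 984, 1356 and 1409 CPM. The A20 transcript was thus higher after papain in epithelium, vessels and neutrophils, and much alike between the libraries in alpha beta T cells. Basal epithelial cells held 26.1% of papain Tnfaip3 UMIs, more than any other class described, and neutrophils 9.32%.

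With lonidamine added to papain, Tnfaip3 was higher in 1 class, conventional dendritic cells (log2 ratio 1.03, 0.70 to 1.38), and lower in 1, pericytes or smooth muscle cells (-1.10, -1.52 to -0.70), of 17. Among the larger classes with enough UMIs, Il1b was higher in 1 and lower in 2 of 16 classes, Il1a lower in 4 of 8, Il1r2 higher in 2 and lower in 2 of 13, Il10 lower in 2 of 4 and Osm higher in 2 of 7. Some rest on few UMIs, with intervals that reach both directions. Such are both higher Il1r2 calls (fibroblasts, -0.36 to 2.74, and globose basal cells, -0.20 to 3.12). Others are Il1a in fibroblasts (-2.70 to 0.30) and Osm in basal epithelial cells (-0.12 to 2.77). The lower Il10 calls were in monocytes and mature olfactory neurons, where 1 papain cell gave many of the UMIs.

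**Figure D4:**
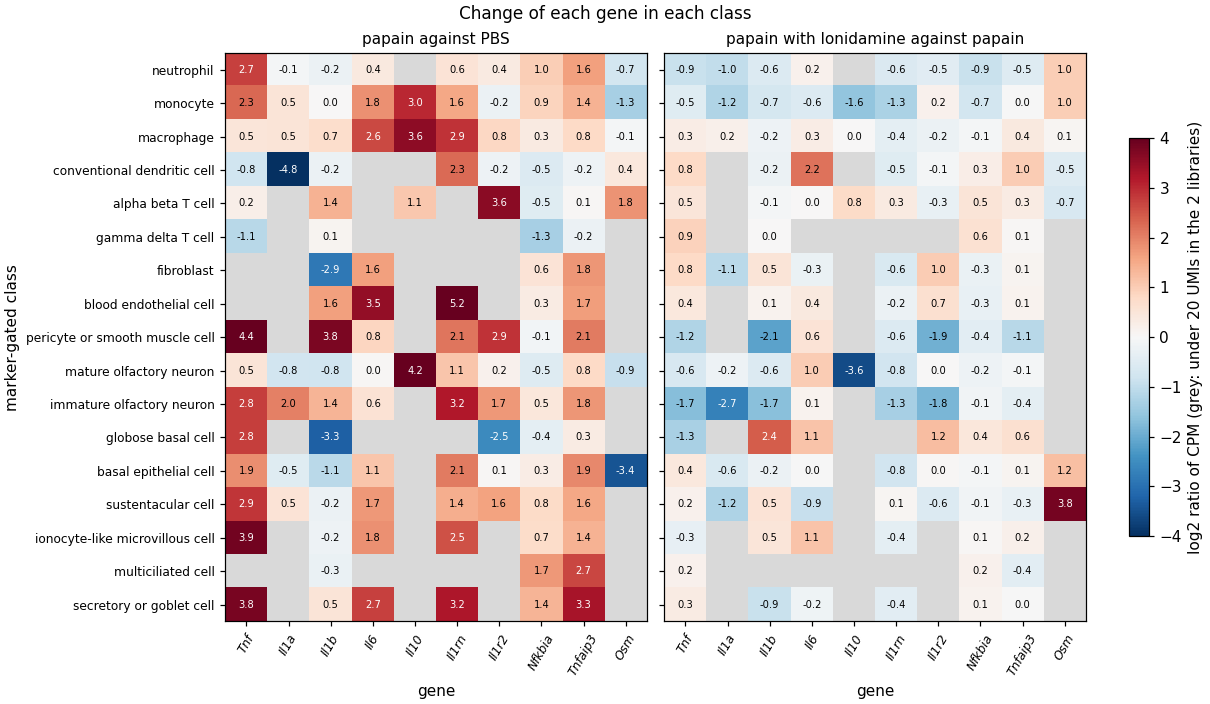
Log2 ratio of CPM for each of the 10 genes (columns) in each of the larger classes (rows), papain against PBS and lonidamine added to papain against papain; grey squares had fewer than 20 UMIs in the libraries compared. Tnfaip3 and Il1rn are each called higher after papain in 11 classes, and the lonidamine panel is paler.

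Within the neutrophil class, 2 of the 9 genes with enough UMIs, Tnf and Tnfaip3, were called higher after papain, where 9.03% of 7861 genes were, and none was called lower, where 3.78% were. With lonidamine added, none of the 9 was called higher (4.84% of 9029 genes) or lower (5.81%). Their median log2 ratio was 0.38 after papain, beside 0.08 for all genes, and -0.55 with lonidamine, beside -0.16. Tnf (-0.89), Il1a (-0.97) and Nfkbia (-0.88) lay nearest to the limit on the lower side with lonidamine and Osm (0.97) on the higher side. The 18S RNA stood at 6537, 34967 and 30341 CPM in the class, and its part in these values was not tested.

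The lonidamine neutrophils also held more immature cells. At least 2 of 9 markers of neutrophil precursors were detected in 5.58% of PBS, 4.78% of papain and 24.6% of lonidamine neutrophils, that is 14, 32 and 198 cells. The summed level of those markers was 3576, 3124 and 33379.8 CPM. Among them Elane, Mpo and Ctsg were at 0 in the gated neutrophils of the PBS and papain libraries. Cells with a larger share of precursor markers were gated apart as neutrophil precursors, 4, 3 and 69 cells. The zeros thus apply only to the cells left in the neutrophil gate. Of the female neutrophils 7.55%, 6.36% and 42.5% had at least 2 markers, and of the male ones 4.08%, 2.27% and 8.16%. No sex was assigned to 149 of 251, 406 of 670 and 503 of 806 neutrophils. Of these unassigned cells 5.37%, 4.19% and 17.1% had at least 2 markers. Female, male and unassigned lonidamine neutrophils had a median of 1873, 1614 and 1272 UMIs. The cells with at least 2 markers had less of most of the 10 transcripts: in the lonidamine library those with at least 2 markers had 137 CPM of Tnf, 1433 CPM of Il1b and 629 CPM of Nfkbia, and those with at most 1 marker had 1568, 12336 and 4658 CPM. Osm was not lower in them, at 302 and 215 CPM, and Il10 had 3 UMIs in each part. In the papain library Il6 was the other way round, with 64.9 CPM from 9 UMIs in the cells with at least 2 markers and 10.8 CPM from 12 UMIs in the rest.

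The comparison among neutrophils with at most 1 precursor marker was chosen after the values had been seen. There the lonidamine ratios of the genes with enough UMIs, other than Il6, lay closer to 0. That of Osm did so only slightly (0.90 in place of 0.97). Il10 had too few UMIs, 5 in the papain and 3 in the lonidamine library. Il6 went past 2-fold, at 14.0, 10.8 and 31.6 CPM (log2 ratio 1.52, 0.54 to 2.66, in place of 0.16), and 1 cell gave 22 of its lonidamine UMIs. Tnf stood at 269, 1919 and 1568 CPM, a log2 ratio of -0.29 (-0.39 to -0.19) for lonidamine added to papain in place of -0.89. Il1b stood at 14091, 12256 and 12336 CPM (0.01, -0.03 to 0.05), and Tnfaip3 at 449, 1412 and 1454 CPM (0.04, -0.06 to 0.15). Il1a (-0.42, -0.59 to -0.25) and Nfkbia (-0.31, -0.37 to -0.25) stayed somewhat lower. The papain ratios were nearly as in the whole class, 2.83 for Tnf and 1.65 for Tnfaip3. By sex, the ratio of Tnf for lonidamine added to papain was -1.61 in female and 0.11 in male neutrophils of the whole class. When neutrophils were instead defined by clusters, the class took in a second neutrophil cluster of 30 PBS, 29 papain and 255 lonidamine cells, of which 5, 10 and 161 were in the gated class already. By clusters 6 of the genes were at least 2-fold lower with lonidamine, among them Tnf (-1.33), Il1a (-1.44) and Nfkbia (-1.30). The share of all genes lower by clusters was not counted, so this count cannot be set against it.

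**Figure D5:**
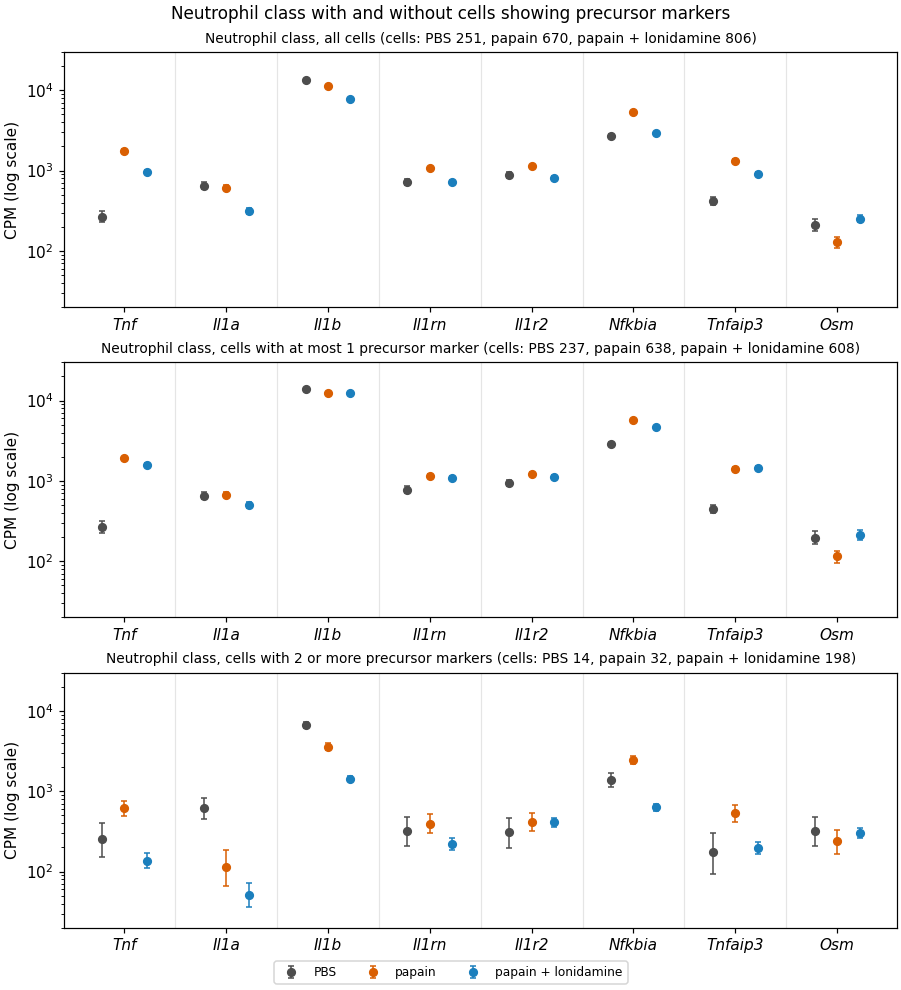
Level (vertical axis, CPM, log scale) of the genes other than Il6 and Il10 in all neutrophils, in those with at most 1 and in those with at least 2 precursor markers detected, in the 3 libraries; bars are 95% counting intervals. Lonidamine cells with at least 2 markers stand at 137 CPM of Tnf and 1433 CPM of Il1b, against 1568 and 12336 CPM in those with at most 1.

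Within the macrophage class, 366, 392 and 400 cells, the genes called higher after papain were Il10, Il1rn and Il6, 3 of 10, where 9.07% of 10340 genes were, and none was called lower, where 6.72% were. With lonidamine added none of the 10 was called higher (2.21% of 9624 genes) or lower (3.21%). The median log2 ratio of the 10 genes was 0.75 after papain, beside -0.06 for all genes, and 0.06 with lonidamine, beside 0.02. In neutrophils Il10 had too few UMIs to be called, and Il1rn (log2 ratio 0.55) and Il6 (0.38) lay within 2-fold after papain. Tnf (0.48) and Tnfaip3 (0.80), the genes called in neutrophils, were higher in macrophages too but within 2-fold. The difference between the classes was not tested. Neutrophil markers summed to 306, 397 and 431 CPM in macrophages. Of the genes called there, Il10 stood at 3.99 CPM and Il6 at 16.7 CPM in papain neutrophils, below the papain macrophages, and Il1rn at 1066 CPM, above them.

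The transcripts were partly found in the same cells. After thinning to 1000 UMIs, Tnf was found in 67.9% (62.7% to 72.8%) of papain neutrophils with a Tnfaip3 UMI and in 37.1% (30.7% to 43.7%) of those without. In lonidamine neutrophils these shares were 51.9% and 17.2%. Of those neutrophils 24.6% had at least 2 precursor markers, and these cells were low in both transcripts (137 CPM of Tnf and 196 CPM of Tnfaip3). Their part in the shares was not tested. In papain macrophages with an Il1a UMI 70.9% (61.8% to 79.0%) had Tnf, against 35.3% (29.0% to 41.9%) of the others. Tnf was as frequent in papain macrophages with Il10 (49.1%, 35.4% to 62.9%) as in those without (47.2%, 41.3% to 53.2%), so that the agonist and the damping cytokine neither joined nor avoided each other there within counting error. In the lonidamine library the shares were 73.3% (58.1% to 85.4%) and 51.3% (45.5% to 57.1%). Cells of 1 library share its preparation, so these shares have no replicate.

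The genes whose level followed that of a member most closely over 51 profiles, 17 classes in 3 libraries, were mostly myeloid, as the classes themselves differ in kind and the profiles share libraries and depth. Each correlation is a description on log2 CPM with 10 added, over 17683 genes. Tnf was closest to the chemokine gene Ccl3 (Pearson r 0.918), then to Il1rn (0.916) and Il1a (0.91). Il1a was closest to Gpr84 (0.962), Fcgr4 (0.955) and Ccl3 (0.954), and Il1b to Plek, Spi1 and Tyrobp (each 0.975). Il1rn was closest to Igsf6 (0.964), then to the inflammasome gene Nlrp3 and Cyp4f18 (each 0.959). Osm was closest to the Fc receptor gene Fcgr3 (0.977), Lair1 (0.972) and Clec4a2 (0.971). Il10 was closest to Arg1 (0.921), which encodes arginase-1, Spic (0.898) and Tfec (0.845). Il1r2 was closest to Cass4 (0.94), 1600010M07Rik (0.932) and AA467197 (0.927). Nfkbia was closest to Nfkbiz (0.94), another gene of the inhibitor family, Mcl1 (0.921) and Csrnp1 (0.906). Tnfaip3 was closest to Gm43430 (0.927), Zc3h12a (0.919), which encodes an RNase that degrades cytokine transcripts, and Skil (0.897). Among the 10 genes themselves Il1b and Osm were most alike (0.938) and Il6 and Il1r2 least (-0.0557).

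The receptor genes were read by the larger class with the highest level in each library. Il6st, the signalling chain for interleukin-6 and oncostatin M, was highest in blood endothelial cells, at 209, 506 and 712 CPM, the class in which Il6 differed most. Osmr, the specific receptor chain for oncostatin M, was highest in pericytes or smooth muscle cells, at 139, 305 and 315 CPM, and Lifr in endothelial cells, at 135, 222 and 278 CPM. Il6ra, the interleukin-6 binding chain, was instead highest in monocytes, at 145, 172 and 224 CPM. Il1r1, the signalling receptor for interleukin-1, was highest in gamma delta T cells, at 119, 187 and 164 CPM, and its partner Il1rap in neutrophils, at 47.9, 119 and 88.9 CPM. Tnfrsf1b was highest in neutrophils in the PBS and papain libraries, at 236 and 497 CPM, and in alpha beta T cells in the lonidamine library, at 314 CPM. Tnfrsf1a was highest in monocytes at 245 and 261 CPM and then in endothelial cells at 245 CPM, and Il10ra in neutrophils at 141 and 214 CPM and then in macrophages at 169 CPM. Sigirr, an inhibitory receptor, reached at most 53.7, 52.3 and 52.4 CPM in any larger class, and Il10rb, a shared chain, 204, 177 and 174 CPM.

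Other genes of the pathway were read from lists of genes by role. Over all cells after papain, 10.2% of all genes were higher and 5.92% lower. Of 19 other NF-kB inhibitors 3 were at least 2-fold higher and 1 lower. Of 10 subunits and kinases 3 were higher and 0 lower, and of 18 response genes 5 and 0. In neutrophils, where 9.03% of all genes were higher and 3.78% lower after papain, 5 of 19 other NF-kB inhibitors were at least 2-fold higher and none lower (median log2 ratio 0.56), as were 2 of 10 subunits and kinases (0.84), and 5 of 18 NF-kB response genes were higher and 1 lower (0.60). Cxcl1, a chemokine for neutrophils, had a log2 ratio of 2.75 and the signalling adaptor Traf1 one of 1.53, while Cxcl3 had -1.78. Of 6 other cytokines with enough UMIs 4 were higher, with Tnfsf9 at 3.32, Lif at 2.95 and Il23a at 2.52. Of 10 receptors 3 were higher, and of 9 release and processing genes 1 was higher, the inflammasome sensor Nlrp3 at 1.56, and 1 lower. With lonidamine added, where 4.84% of all neutrophil genes were higher and 5.81% lower, Il23a (-1.72), Traf1 (-1.32) and Cxcl1 (-1.29) were lower, and the lists counted 0 higher and 1 lower of 19 inhibitors, 0 and 1 of 10 subunits and kinases, 0 and 3 of 18 response genes, none of 10 receptors, 1 and 0 of 9 release genes and 1 and 1 of 9 other cytokines. These neutrophils include the immature cells described above, and their part in the list counts was not tested.

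In macrophages after papain, the NF-kB subunit genes Nfkb1 (log2 ratio 1.70) and Rel (1.23) were the 2 of 10 subunits and kinases called higher, and Tnip1 (1.43) and Bcl3 (1.16) the 2 of 19 inhibitors. Over all macrophage genes 9.07% were higher, a share near that of the inhibitors, and 6.72% were lower. Of 18 response genes 6 were higher and none lower (median 0.65), with Cxcl3 at 2.24 and Ptgs2, the inducible cyclooxygenase, at 1.83. Of 9 other cytokines 5 were higher and 1 lower, with Il12b at 5.01 and Lif at 3.59. Of 9 receptors 4 were higher, and of 9 release genes Nlrp3 (1.32) was higher and 1 lower. With lonidamine added, 1 gene of these 6 lists was called, the receptor gene Osmr (-1.22), where 2.21% of all macrophage genes were higher and 3.21% lower.

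Lists for other influences were counted the same way. After papain, the shares of all genes higher and lower were 10.2% and 5.92% over all cells. They were 9.03% and 3.78% in neutrophils and 9.07% and 6.72% in macrophages. With lonidamine added, they were 4.84% and 5.81% in neutrophils and 2.21% and 3.21% in macrophages. Of 15 genes that respond to tissue dissociation, 3 were higher and none lower over all cells after papain (median log2 ratio 0.32), and their summed level was 12404, 15520.0 and 16986 CPM. The part of this in the all-cell values of the 10 genes was not tested. Of the same 15 genes, none was called in neutrophils after papain and 1 each way in macrophages, and their summed level was 13971, 13995 and 12101 CPM in neutrophils and 16234, 13107 and 14388 CPM in macrophages. Of 10 glucocorticoid-responsive genes 2 were higher after papain in each class, and 1 was lower with lonidamine in each. Of 12 ribosomal protein genes 1 was lower in neutrophils after papain, with a list median of -0.71, and none was called in macrophages or with lonidamine. Of the glycolysis genes, 1 of 18 was lower in neutrophils and 6 of 17 were lower in macrophages after papain, with Tpi1 at -1.47. With lonidamine 3 of 18 were higher in neutrophils, with Hk3 at 2.03, and none of 17 was called in macrophages. Over all cells after papain 3 of 18 glycolysis genes were higher and 2 lower, where 10.2% and 5.92% of all genes were. The median log2 ratio of that list was nevertheless -0.65, and its summed level was 4762, 2926 and 2701 CPM in the PBS, papain and lonidamine libraries. With lonidamine 1 of the 15 dissociation genes was higher in macrophages and none was called in neutrophils.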

How the data were processed

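The deposited files hold UMI counts per gene and cell barcode, not normalized, made by the authors with Cell Ranger. The file headers give version 7.1.0 and the submitters' processing notes version 2.1.1 with build GRCm39. No source used here says whether doublets had been removed. Kept cells had 500 or more UMIs, 200 or more genes and 20% or less mitochondrial UMIs, and the 137, 188 and 262 doublets that Scrublet called (scanpy 1.11.5) were removed. A cell joined the class of which it detected the largest share of markers, and at least 3. Counts were summed per library and class. Log2 ratios of CPM had 0.5 counts added, with exact conditional binomial 95% intervals, and shares had Clopper-Pearson intervals. Depth was 5823 to 7352 UMIs per median cell.

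All 10 genes are named, with the 3 closest genes of each member but Il6, the leading class of each receptor and, per list, up to 3 genes with the largest ratio. The closest genes of Il6 are not reported here. The members and the 10 lists (NF-kB inhibitors, subunits and kinases, response genes, receptors, release and processing, other cytokines, dissociation, glucocorticoid, ribosomal protein and glycolysis) were chosen with earlier results of these data known. Alternatives were TMM scaling (edgeR 4.0.16), other totals, added counts, folds and count minimums, all deposited barcodes, doublets kept, 1 more marker, clusters (leidenalg 0.10.2, the members left out of the variable genes) and cells of 1 sex. The ratio code was tested on simulated data.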

Additional observations from a re-analysis of the deposited data

Results flagged for a closer look

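The ratios of 5 gene and class pairs for lonidamine added to papain had opposite signs in female and male cells, with each counting interval clear of 0. With 1 library per group the difference between the sexes was not tested. Sex was assigned cell by cell from RNA, and 83.1% of the assigned lonidamine cells were female.

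Il6, over all cells, had a log2 ratio of 0.15 in female and -1.04 in male cells. Within macrophages it was 0.72 in female and -1.81 in male cells. The male value rests on 49 Il6 UMIs in 65 papain and 9 in 46 lonidamine macrophages. The female one rests on 103 UMIs in 201 and 172 in 244 macrophages. Osm, over all cells, had 0.53 in female and -0.47 in male cells. Within neutrophils Il1a had -1.86 in female and 0.63 in male cells, and Tnfaip3 -0.98 in female and 0.48 in male cells. The male neutrophils numbered 44 in the papain and 49 in the lonidamine library and the female ones 220 and 254. Most neutrophils, 406 of 670 in the papain and 503 of 806 in the lonidamine library, had no sex assigned. Immature cells, with at least 2 precursor markers, made up 42.5% of female, 8.16% of male and 17.1% of unassigned lonidamine neutrophils. The part of the immature cells in these ratios was not tested. Without them, Il1a stood at 816 and 411 CPM in female papain and lonidamine neutrophils and at 415 and 638 CPM in male ones. Tnfaip3 without them stood at 1362 and 1308 CPM in female and at 821 and 1099 CPM in male ones, so that its female levels were nearly equal.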

How the results depend on the processing

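No paired analysis was possible because each group is 1 library. No called ratio changed sign in 89 recomputations, and 3 fell below 2-fold. Of 497 recomputed ratios 32 had the other sign, each of a ratio not called in the report. Both totals include settings that change only the fold or the count minimum, under which a ratio cannot differ. Of the 497 these were 20 each at 1.5-fold, with no filter on low counts and with at least 100 UMIs. For papain against PBS, the genes higher over all cells were 7 at 1.5-fold in place of 4, and the 1 lower, Osm, was 0 in female cells and 0 with totals that left out mitochondrial, 18S and haemoglobin genes. In male cells alone 1 gene was higher in neutrophils in place of 2, and 6 in macrophages in place of 3. For lonidamine added to papain, neutrophil genes at least 2-fold higher were 1 in place of 0 with TMM (Osm, 1.13), with 1 more marker (Osm, 1.03), in female cells (Osm, 1.03) and with at most 1 precursor marker (Il6, 1.52; in the whole class 22 of its 30 lonidamine UMIs came from 1 cell). Neutrophil genes at least 2-fold lower were 6 in place of 0 with clusters named from the same markers, 5 in female cells and 1 in male cells. In male cells 1 gene was lower over all cells and 2 in macrophages, in place of 0. The restriction to at most 1 precursor marker and that to the larger neutrophil cluster were chosen after seeing the data. Where a class had under 20 UMIs of a gene in the libraries compared, no call could be made at this depth.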
